A study of Rattus with 8 samples.

Results

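The Wnt ligands, their receptors, secretion factors, antagonists, R-spondin axis, transducers and feedback genes were followed in cultured rat neural stem cells by sequencing of polyadenylated RNA. Members were chosen by gene symbol: the Wnt, Frizzled, secreted Frizzled-related, Dickkopf and R-spondin families and a short list of other named components, which gave 61 of the 18374 genes in the deposited table. Axin1 was named in the rule and is not analysed here. All cells were collected on day 5, in 4 groups of 2 libraries: untreated control cells, cells cultured with a piezoelectric material, cells exposed to ultrasound, and cells cultured with piezoelectric nanostickers. The labels do not give the composition of either material, the ultrasound settings, or whether the nanosticker cells also received ultrasound. Nor is it stated that the 2 samples in each group came from separate cultures, so all p-values rest on a spread between samples that may be purely technical.

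Wnt proteins are lipid-modified secreted signals that bind Frizzled receptors, together with Lrp5 or Lrp6 when they act through β-catenin, the protein encoded by Ctnnb1. Stabilised β-catenin enters the nucleus and works with TCF/LEF factors to switch on target genes, several of which encode inhibitors of the pathway. In the developing nervous system the pathway is known for its roles in progenitor proliferation, regional patterning and glial differentiation.

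Library totals ran from 15239133 to 15628667 estimated counts, and 46 of the 61 members had enough counts to be tested among 14336 genes. The label of neural stem cells was checked on 8 markers of neural stem cells and progenitors, all with a mean of at least 1 TPM (transcript counts scaled for length and library size) in the control. Sox2 averaged 210.2 TPM there and 288 TPM with nanostickers, and Nes 91.04 and 77.4 TPM. Sox1 averaged 27.67 and 12.25 TPM, Slc1a3 448 and 240 TPM, and Fabp7 4727 and 2525.5 TPM. By the test used below, 1 of the 8 was higher with nanostickers than in the control and 4 were lower. Among all tested genes 19.8% were higher and 17.7% lower. Markers of other neural cells were also present. The summed level of 9 markers of the oligodendrocyte lineage was 5774 to 6234 TPM in the control and 18028 to 18081 TPM in the nanosticker libraries, with no marker at 0. For 7 astrocyte markers the summed level was 4020.0 to 4045 TPM in the control and 2422 to 2449 TPM with nanostickers, and for 8 neuron markers 675 to 678 and 382 to 385 TPM. For 8 stem and progenitor markers, a sum carried by Vim and Fabp7, it was 10694 to 11167 and 8139 to 8359.9 TPM, and for 7 microglia markers 27.2 to 31.4 and 2.32 to 2.43 TPM. For 9 fibroblast and meningeal markers it was 59.9 to 70.1 TPM in the control and 98.2 to 102 TPM with nanostickers. With the piezoelectric material it was 86.8 to 97.6 TPM and with ultrasound 89.7 to 95.5 TPM. The 9 did not move together. Igf2 had a mean of 0.565 TPM in the control and 14.8 TPM with nanostickers, and Pdgfrb 28.7 and 14.8 TPM. For 7 choroid plexus and ependyma markers it was 81.1 to 81.7 TPM in the control, 250.3 to 285 TPM with the piezoelectric material, where Ttr averaged 178 TPM, and 58.9 to 60.5 TPM with nanostickers. Endothelial markers summed to at most 2.20 TPM in any library. The part of these shifts in the Wnt results was not tested, and in bulk RNA fewer cells of a type and less RNA per cell cannot be told apart. The 2 control libraries differed from each other at several members, among them Fzd3 with 34.3 and 62.3 CPM (counts scaled for library size) and Lrp6 with 49.00 and 70.1 CPM, so results that rest on 1 control library are given with and without it.

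The nanosticker libraries stood apart at the Wnt pathway genes. Against the control, 19 of the 46 tested members passed an adjusted p below 0.05 in edgeR's quasi-likelihood test with Benjamini-Hochberg adjustment over all tested genes, 5 higher and 14 lower. That is 41.3% of the tested members, close to the 37.5% of all tested genes, so the count alone is no result about the pathway. By direction, 30.4% of the tested members were lower beside 17.7% of all tested genes, and 10.9% were higher beside 19.8%. The median log2 fold change was -0.042 over the members and 0.0064 over all tested genes, and the median size of the change, whatever its sign, was 0.28 and 0.23. Without control replicate 1 the median log2 fold change over 49 tested members was -0.0625, and without control replicate 2 it was 0.0879 over 49. The sign of the members' median thus depended on which control library was left out. Values over all tested genes are not given for those fits.

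**Figure D1:**
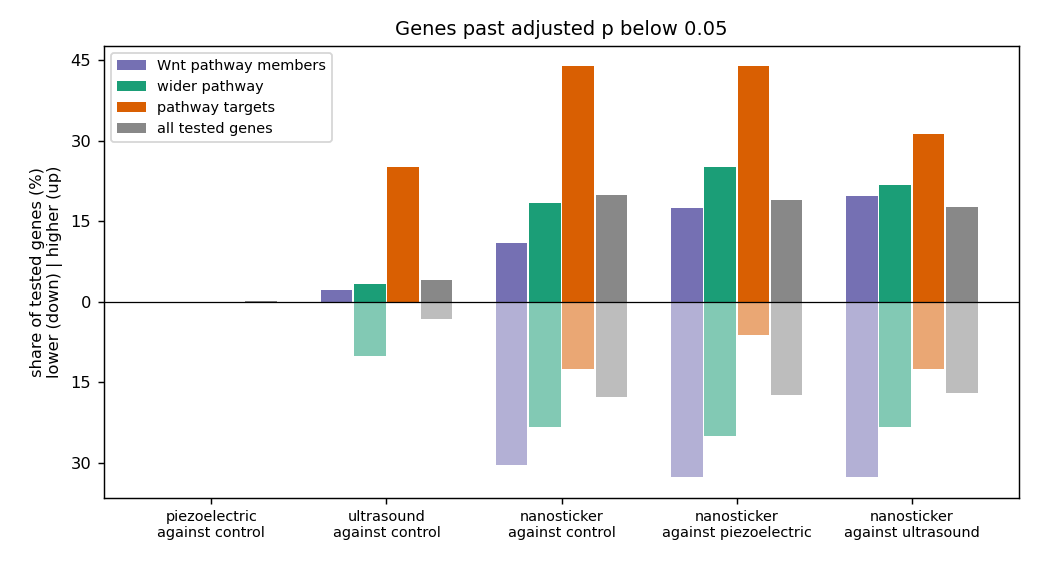
Share of genes past an adjusted p below 0.05 in each of the 5 comparisons, in percent of the genes tested, for all tested genes, the Wnt pathway members and the 2 further pathway lists. Bars above 0 give genes that were higher and paler bars below 0 genes that were lower in the group named first. In the 3 nanosticker comparisons the members' bars reach 30.4% to 32.6% downward, against 16.9% to 17.7% for all tested genes.

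Against the piezoelectric group, 23 members differed, 8 higher and 15 lower, which is 50% beside 36.4% of all tested genes. Against the ultrasound group, 24 differed, 9 higher and 15 lower, or 52.2% beside 34.4%. Lower members made up 32.6% of those tested in each of these 2 comparisons, beside 17.4% and 16.9% of all tested genes, and higher members 17.4% and 19.6%, beside 18.9% and 17.6%. The 3 nanosticker comparisons use the same 2 nanosticker libraries, so they are not independent of each other. Under DESeq2 the counts were 13, 11 and 12 members against the control, piezoelectric and ultrasound groups, or 28.3%, 23.9% and 26.1% beside 26.3%, 25.8% and 23.7% of all tested genes. Taking both directions together, the members' shares were thus near those of all genes with that tool. By direction, 4 members were higher and 9 lower against the control, beside 2011 and 1763 of the 14336 tested genes. Against the piezoelectric group 3 were higher and 8 lower, beside 1928 and 1770, and against the ultrasound group 4 and 8, beside 1795 and 1605. Without nanosticker replicate 1 the count against the piezoelectric group was 11 and against the ultrasound group 14. Leaving out piezoelectric replicate 1 gave 15 in the former, and leaving out ultrasound replicate 1 or 2 gave 13 or 14 in the latter.

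Few members passed with either single treatment. With the piezoelectric material 0 of 46 members passed in edgeR's quasi-likelihood test, beside 0.23% of all tested genes (0.16% higher and 0.0698% lower). DESeq2 and limma-voom also called 0. In edgeR's test 3 of the 46 members had an unadjusted p below 0.05, beside 1161 of the 14336 tested genes. The 3 were Lrp5 at a log2 fold change of 0.39, Sfrp1 at -0.26 and Lgr5 at -0.23. Without control replicate 2, the values of Lrp6 and Znrf3 were 0.52 and 0.88, set against control replicate 1 alone. Lrp6 had 49.00 and 70.1 CPM in the control and 74.1 and 66.5 CPM with the piezoelectric material. Znrf3 had 3.16 and 5.41 CPM in the control and 5.90 and 5.74 CPM with the piezoelectric material. With ultrasound 1 of 46 members passed, 2.17% beside 7.19% of all tested genes. It was the receptor gene Fzd2, which was higher, as were 4.03% of all tested genes, with 3.16% lower.

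**Figure D2:**
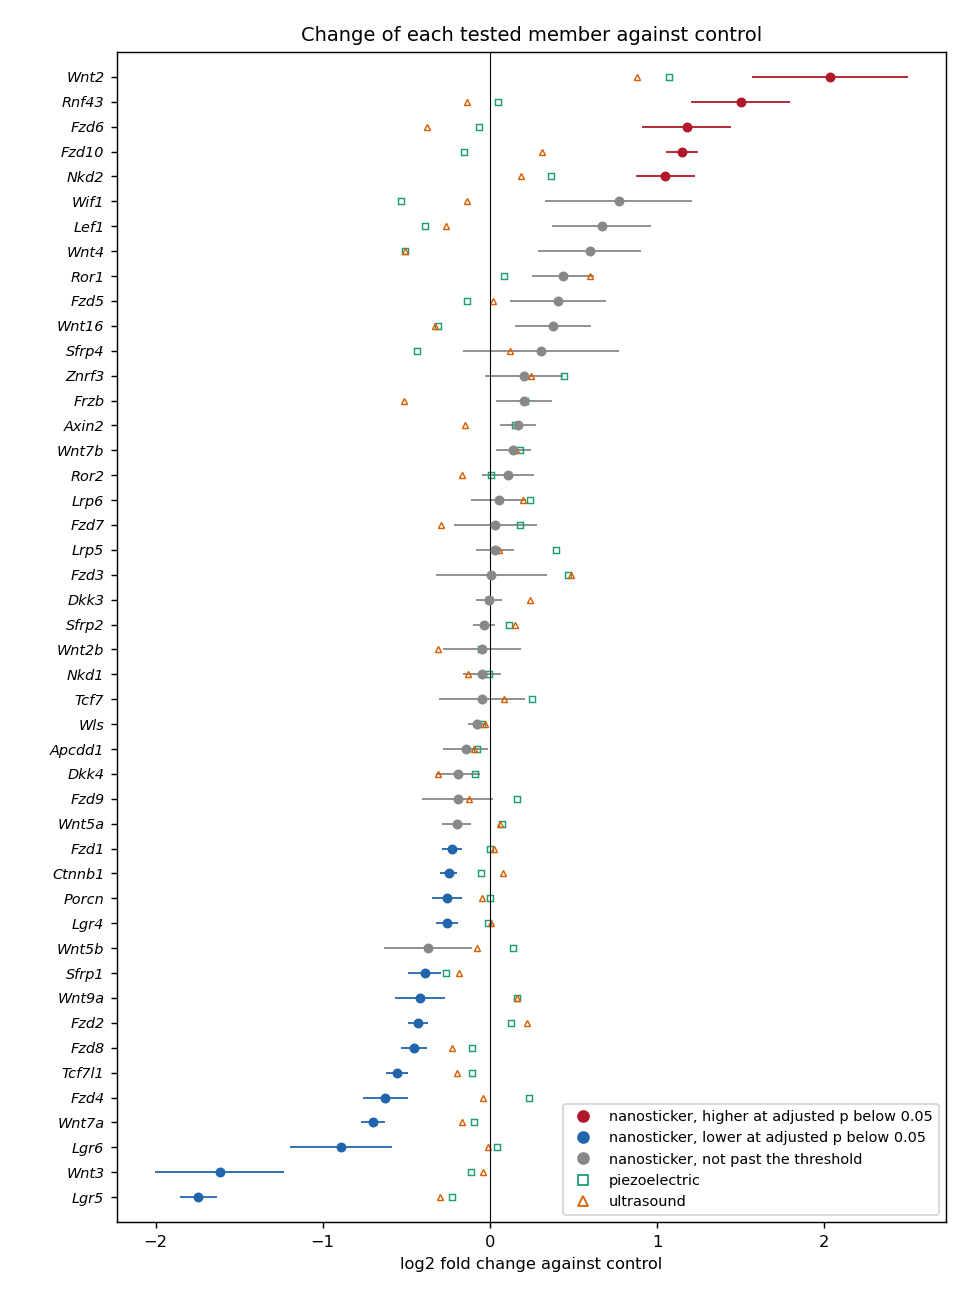
Log2 fold change against the control of each tested member, on the horizontal axis, for the nanosticker (filled circles, coloured where adjusted p was below 0.05), piezoelectric (open squares) and ultrasound (open triangles) groups. Nanosticker values run from -1.74 for Lgr5 to 2.03 for Wnt2, and most piezoelectric and ultrasound values lie near 0.

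Of the 17 ligand genes, 10 were tested. Wnt7b had the highest mean level per transcript length, 31.4 TPM, and was nearly level across the study, with 27.8 and 31.4 TPM in the control, 34.5 and 31.7 TPM with the piezoelectric material, 32.2 and 31.1 TPM with ultrasound and 32.7 and 29.9 TPM with nanostickers. Its log2 fold change in the nanosticker group was 0.14 ± 0.10 (SE, adjusted p = 0.319).

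Its paralogue Wnt7a fell with nanostickers. Wnt7a (gene ID 114850, reverse strand of chromosome 4 between bases 122994425 and 123040609 of Rnor 6.0) had 59.4 and 57.2 CPM in the control libraries, 52.4 and 56.6 CPM in the piezoelectric, 51.03 and 52.7 CPM in the ultrasound and 34.8 and 36.9 CPM in the nanosticker libraries. Both nanosticker libraries lay below the other 6, and the log2 fold change against the control was -0.70 ± 0.073 (SE, adjusted p = 6.84e-06), with -0.60 against the piezoelectric and -0.53 against the ultrasound group. Both proteins act in the nervous system and share the co-receptor Reck, so their balance was also read as a share of summed ligand TPM, a description with no test. Wnt7a held 34.7 and 34.5% in the control libraries and 23.7 and 24.8% in the nanosticker libraries. Wnt7b held 31.7 and 34.3% in the control and 43.4 and 39.00% with nanostickers. By TPM the 2 genes led the ligands in every group. Wnt7a was only narrowly ahead in both control libraries and stood well behind Wnt7b with nanostickers. That order rests on effective lengths of 746 bases for Wnt7b and 2850 bases for Wnt7a. In CPM, which is not scaled for length, Wnt7a was above Wnt7b in every library. Wnt7b had 14.2 and 14.9 CPM in the control and 16.7 and 15.4 CPM with nanostickers. Summed ligand TPM was 87.7 and 91.4 in the control and 75.3 and 76.7 with nanostickers.

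Among ligands of low abundance, Wnt2 rose and Wnt3 fell. Wnt2 (reverse strand of chromosome 4 between bases 45286845 and 45332899 of Rnor 6.0) had 0.258 and 0.708 CPM in the control, 1.41 and 0.638 CPM with the piezoelectric material, 0.899 and 0.894 CPM with ultrasound and 1.92 and 2.09 CPM with nanostickers. The nanosticker libraries were the highest of the 8, but the 2 control libraries were far apart. The log2 fold change was 2.03 ± 0.47 (SE, adjusted p = 0.00411). Over the alternatives it ran from 1.485 to 2.92, the highest without control replicate 2. The control libraries held only 4 and 11 counts of Wnt2, so the size of the rise is uncertain. It did not pass against the piezoelectric group, at 0.96 ± 0.41 (SE, adjusted p = 0.0887), or the ultrasound group, at 1.15 ± 0.42 (SE, adjusted p = 0.0506). Wnt2 passed the filter on low counts through the ultrasound and nanosticker groups.

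Wnt3 had 1.61 and 1.29 CPM in the control, 1.54 and 1.15 CPM in the piezoelectric, 1.22 and 1.60 CPM in the ultrasound and 0.463 and 0.472 CPM in the nanosticker libraries. The nanosticker libraries were below all others, and the log2 fold change against the control was -1.62 ± 0.39 (SE, adjusted p = 0.00542). DESeq2 gave an adjusted p of 0.068 for it. Wnt3 passed the filter on low counts through the control, piezoelectric and ultrasound groups, so its place among the tested genes rests on its higher values there. Each nanosticker library had 7 counts of Wnt3. Wnt9a, a further ligand, had 7.04 and 7.98 CPM in the control and 5.43 and 5.80 CPM in the nanosticker libraries, with 8.72 and 8.10 CPM in the piezoelectric and 8.15 and 8.69 CPM in the ultrasound libraries. Its log2 fold change of -0.42 ± 0.15 (SE, adjusted p = 0.043) was lost when any library other than control replicate 1 was left out (adjusted p from 0.0585 to 0.189, and from 0.0561 to 0.25 with DESeq2, no filter on low counts, the compared groups alone or the replicate block).

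Wnt4, Wnt16 and Wnt5a differed from the other treatments and not, past the threshold, from the control. Wnt4 had 1.55 and 1.09 CPM in the control, 0.962 and 0.893 CPM in the piezoelectric, 0.963 and 0.894 CPM in the ultrasound and 2.25 and 1.75 CPM in the nanosticker libraries. It was higher with nanostickers by 1.10 ± 0.32 (SE, adjusted p = 0.0174) on the log2 scale against the piezoelectric and by 1.10 ± 0.32 (SE, adjusted p = 0.0187) against the ultrasound group, beside 0.60 ± 0.31 (SE, adjusted p = 0.153) against the control. The call against the piezoelectric group was lost without nanosticker replicate 1, piezoelectric replicate 1 or piezoelectric replicate 2 (adjusted p from 0.0789 to 0.128, and 0.186 with DESeq2), and the call against the ultrasound group without nanosticker replicate 1, ultrasound replicate 1 or ultrasound replicate 2 (adjusted p from 0.083 to 0.134, and 0.194 with DESeq2).

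Wnt16 had 2.84 and 2.96 CPM in the control, 2.69 and 1.98 CPM in the piezoelectric, 2.05 and 2.55 CPM in the ultrasound and 3.77 and 3.78 CPM in the nanosticker libraries, which were the highest. Its log2 fold change with nanostickers was 0.69 ± 0.23 (SE, adjusted p = 0.0339) against the piezoelectric and 0.71 ± 0.23 (SE, adjusted p = 0.0317) against the ultrasound group. Leaving out either nanosticker library or piezoelectric replicate 2 ended the former call (adjusted p from 0.11 to 0.248, and from 0.0525 to 0.238 with DESeq2 or the replicate block), and either nanosticker or either ultrasound library the latter (adjusted p from 0.0598 to 0.204, and from 0.05 to 0.23 with DESeq2 or the replicate block). Wnt5a, the ligand best known for signalling without β-catenin through Ror1 and Ror2, had 40.2 and 37.7 CPM in the control, 42.5 and 39.5 CPM in the piezoelectric, 42.04 and 39.2 CPM in the ultrasound and 31.3 and 36.6 CPM in the nanosticker libraries. It was lower with nanostickers at -0.27 ± 0.088 (SE, adjusted p = 0.0287) against the piezoelectric and -0.26 ± 0.088 (SE, adjusted p = 0.0375) against the ultrasound group on the log2 scale. Those calls ended without nanosticker replicate 1 or piezoelectric replicate 1 (adjusted p from 0.189 to 0.284, and 0.116 with DESeq2), and without nanosticker replicate 1, piezoelectric replicate 1 or either ultrasound library (adjusted p from 0.051 to 0.334, and from 0.0612 to 0.161 with DESeq2 or the replicate block). Against the control its value was -0.20 ± 0.088 (SE, adjusted p = 0.0973), and without control replicate 2 it passed at -0.25 (adjusted p = 0.0459). The other 2 tested ligands, Wnt2b and Wnt5b, passed in no comparison.

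**Figure D3:**
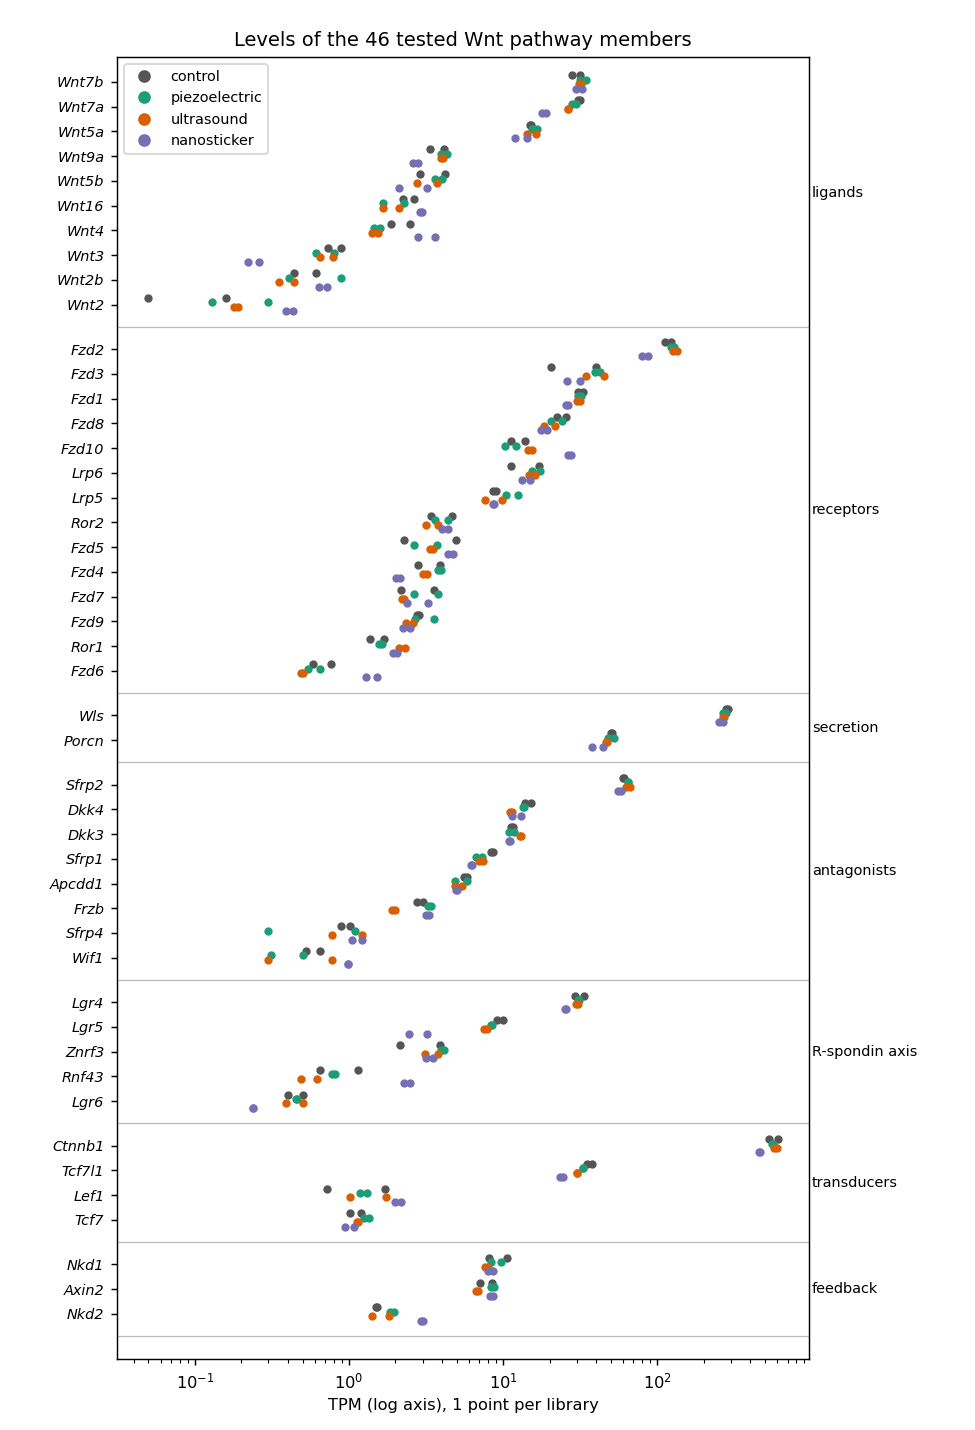
Level of each of the 46 tested members, grouped by role, in TPM on a log axis, with 1 point per library coloured by group. Ctnnb1 is the most abundant at a mean of 542.6 TPM, and the nanosticker points lie outside the others at Lgr5, Rnf43, Fzd10, Wnt3 and Wnt2.

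All 14 receptor genes were tested, and the Frizzled family moved in both directions with nanostickers, with 2 of its genes higher and 4 lower than in the control, 42.9% of the receptor genes beside 37.5% of all tested genes. The 6 were Fzd6 and Fzd10, which rose, and Fzd1, Fzd2, Fzd4 and Fzd8, which fell. The co-receptors Lrp5 and Lrp6 and the receptors Ror1 and Ror2 did not pass against the control.

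Fzd2 was the most abundant Frizzled, with a mean of 114 TPM. Fzd2 (gene ID 64512, forward strand of chromosome 10 between bases 90550147 and 90552057 of Rnor 6.0) had 123 and 125 CPM in the control, 138 and 133 CPM in the piezoelectric, 147 and 143 CPM in the ultrasound and 88.2 and 96.4 CPM in the nanosticker libraries. The nanosticker libraries were the lowest and the ultrasound libraries the highest, with no overlap between groups. The log2 fold change was -0.43 ± 0.060 (SE, adjusted p = 1.00e-04) with nanostickers and 0.22 ± 0.059 (SE, adjusted p = 0.0434) with ultrasound, each against the same control, and -0.65 ± 0.060 (SE, adjusted p = 2.75e-06) for nanosticker against ultrasound. The ultrasound call ended when any of the 6 libraries outside the control was left out (adjusted p from 0.0593 to 0.314, and from 0.0561 to 0.168 with DESeq2, library size alone, the compared groups alone, relative log expression factors or the replicate block). The fall with nanostickers was called under every alternative tried.

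Fzd10 (gene ID 363913, reverse strand of chromosome 12 between bases 31757407 and 31760604 of Rnor 6.0) had 22.4 and 25.6 CPM in the control, 23.1 and 20.02 CPM in the piezoelectric, 28.4 and 31.2 CPM in the ultrasound and 51.9 and 54.5 CPM in the nanosticker libraries. The nanosticker libraries lay well above the other 6, at a log2 fold change of 1.15 ± 0.093 (SE, adjusted p = 6.71e-07) against the control, 1.30 against the piezoelectric and 0.84 against the ultrasound group. Without control replicate 2 it also passed with ultrasound, at 0.41 (adjusted p = 0.009). As a share of summed Frizzled TPM, a description with no test, Fzd10 held 5.46 and 5.56% in the control libraries and 13.5 and 13.8% in the nanosticker libraries. Fzd2 held 53.95 and 48.9% in the control and 41.1 and 43.6% with nanostickers, so it remained the leading receptor. Summed Frizzled TPM was 207 and 249.7 in the control and 194 and 200.2 with nanostickers.

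**Figure D4:**
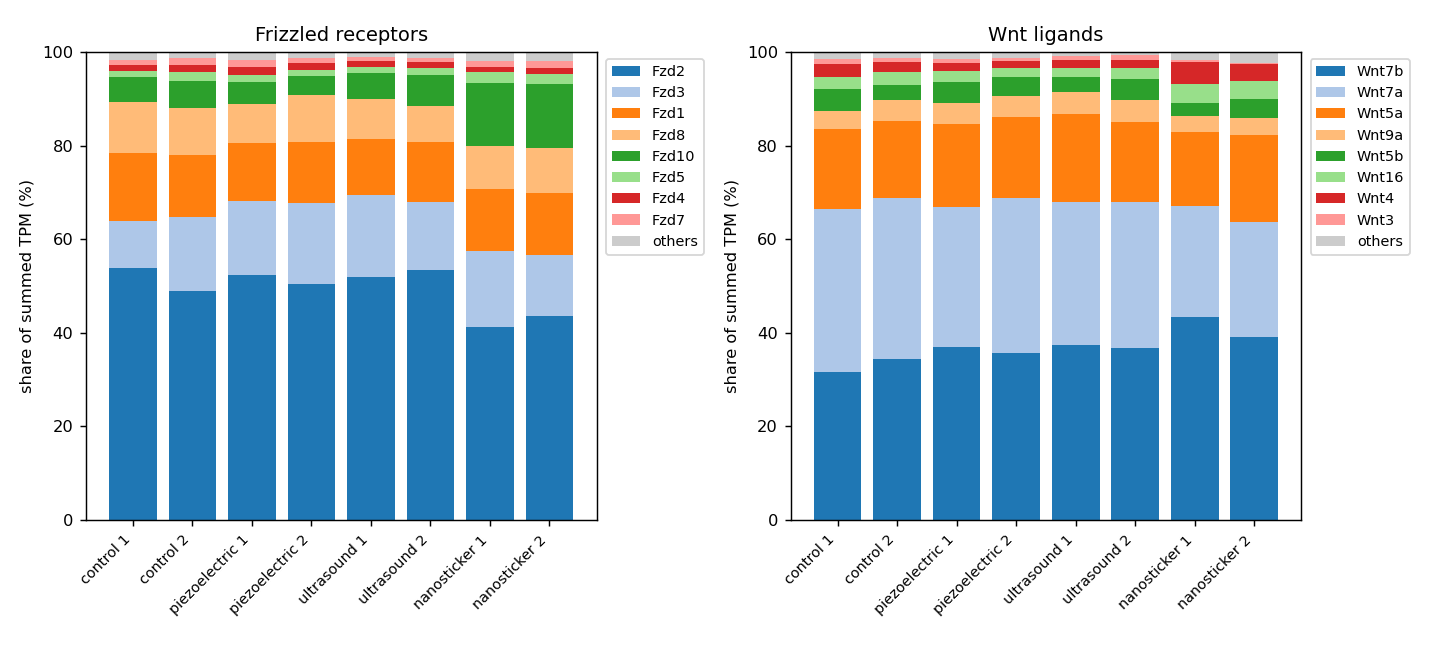
Share of the summed TPM of the ligand genes and of the Frizzled genes held by each gene, in percent, in each of the 8 libraries. With nanostickers the Fzd10 band is wider and the Fzd2 and Wnt7a bands are narrower than in the control.

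Fzd6 had 2.001 and 1.42 CPM in the control, 1.80 and 1.47 CPM in the piezoelectric, 1.28 and 1.34 CPM in the ultrasound and 4.30 and 3.44 CPM in the nanosticker libraries, which were the highest 2. Its log2 fold change was 1.18 ± 0.27 (SE, adjusted p = 0.00368) by edgeR's test, and DESeq2 gave an adjusted p of 0.0505. Fzd4, which also serves as the receptor for norrin, had 12.6 and 16.2 CPM in the control, 17.1 and 16.7 CPM in the piezoelectric, 14.2 and 13.7 CPM in the ultrasound and 9.07 and 9.58 CPM in the nanosticker libraries. Both nanosticker values were below the rest, at a log2 fold change of -0.62 ± 0.13 (SE, adjusted p = 0.00242).

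Fzd8 had 72.8 and 75.1 CPM in the control, 65.6 and 71.99 CPM in the piezoelectric, 67.1 and 59.4 CPM in the ultrasound and 53.02 and 55.02 CPM in the nanosticker libraries. The groups were ordered without overlap between nanosticker and any other, and the log2 fold change against the control was -0.45 ± 0.077 (SE, adjusted p = 4.78e-04). It is the 1 member with counts that are not whole, so some of its reads were divided with another feature. Against the ultrasound group its value was -0.23 ± 0.077 (SE, adjusted p = 0.0379), a call lost without either nanosticker library or ultrasound replicate 1 (adjusted p from 0.104 to 0.339, and from 0.0605 to 0.132 with DESeq2 or the replicate block).

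Fzd1 had 85.2 and 85.6 CPM in the control, 83.4 and 87.7 CPM in the piezoelectric, 87.2 and 86.4 CPM in the ultrasound and 72.2 and 73.6 CPM in the nanosticker libraries. The fall was small, at a log2 fold change of -0.23 ± 0.060 (SE, adjusted p = 0.00939), and did not pass without nanosticker replicate 1 (adjusted p = 0.0702). Against the piezoelectric group the fall of Fzd1 was -0.23 ± 0.060 (SE, adjusted p = 0.00905) and did not pass without nanosticker replicate 1 or piezoelectric replicate 2 (adjusted p from 0.0708 to 0.0838). Against the ultrasound group it was -0.25 ± 0.060 (SE, adjusted p = 0.0056) and did not pass without nanosticker replicate 1 (adjusted p = 0.0522). The co-receptor gene Lrp5 had 28.7 and 27.9 CPM in the control, 40.2 and 34.1 CPM in the piezoelectric, 32.7 and 25.99 CPM in the ultrasound and 29.1 and 28.7 CPM in the nanosticker libraries. It was lower with nanostickers than with the piezoelectric material, at -0.36 ± 0.11 (SE, adjusted p = 0.0209), where the piezoelectric libraries were the high ones and the nanosticker libraries overlapped the control. Leaving out either nanosticker library or piezoelectric replicate 1 ended that call (adjusted p from 0.096 to 0.207, and 0.0575 with DESeq2).

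Of the other receptor genes, Fzd3, Fzd5, Fzd7, Fzd9, Lrp6, Ror1 and Ror2 passed in no comparison. Lrp6 had 49.00 and 70.1 CPM in the control and 65.3 and 58.1 CPM with nanostickers, which lay between the 2 control values. Fzd5 had 2.26 and 4.57 CPM in the control and 4.70 and 4.38 CPM with nanostickers. Without control replicate 2, the higher of the pair for both genes, their log2 fold changes with nanostickers were 0.33 and 1.00. Both rises rest on control replicate 1. With ultrasound the value of Lrp6 was then 0.48, where the ultrasound libraries had 70.4 and 66.04 CPM.

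Of the 2 secretion genes, Porcn fell with nanostickers and Wls did not pass. Wls, which carries Wnt proteins to the cell surface, was the second most abundant member with a mean of 270.5 TPM, and had 448 and 429 CPM in the control, 431 and 419 CPM in the piezoelectric, 427 and 434 CPM in the ultrasound and 426 and 404 CPM in the nanosticker libraries. Its groups overlapped, and its log2 fold change with nanostickers was -0.079 ± 0.053 (SE, adjusted p = 0.275). Porcn, the enzyme that attaches the lipid to Wnt proteins, had 53.9 and 50.5 CPM in the control, 49.4 and 55.2 CPM in the piezoelectric, 50.2 and 50.9 CPM in the ultrasound and 40.1 and 47.3 CPM in the nanosticker libraries. It was lower with nanostickers at -0.26 ± 0.089 (SE, adjusted p = 0.0382) against the control and -0.26 ± 0.089 (SE, adjusted p = 0.0377) against the piezoelectric group. The first call ended without control replicate 1, nanosticker replicate 1 or either ultrasound library (adjusted p from 0.0629 to 0.341, and from 0.0706 to 0.101 with DESeq2 or the compared groups alone), and the second without nanosticker replicate 1, piezoelectric replicate 2 or either ultrasound library (adjusted p from 0.063 to 0.344, and 0.108 with DESeq2).

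Of 12 secreted or membrane antagonists, 8 were tested and Sfrp1 alone passed in the nanosticker comparison with the control. That is 12.5% of the tested antagonists, beside 37.5% of all tested genes. Sfrp1, a Wnt-binding protein, had 20.4 and 19.8 CPM in the control, 15.8 and 17.7 CPM in the piezoelectric, 18.04 and 17.4 CPM in the ultrasound and 15.2 and 15.4 CPM in the nanosticker libraries. The control pair was the highest and the nanosticker pair the lowest, though close to the lower piezoelectric library, and the log2 fold change was -0.39 ± 0.10 (SE, adjusted p = 0.00757). DESeq2 gave an adjusted p of 0.0765.

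Sfrp2 was the most abundant antagonist with a mean of 61.7 TPM, and had 69.4 and 64.9 CPM in the control, 71.5 and 73.6 CPM in the piezoelectric, 75.7 and 73.1 CPM in the ultrasound and 63.8 and 67.1 CPM in the nanosticker libraries. The control and nanosticker pairs overlapped, at a log2 fold change of -0.037 ± 0.066 (SE, adjusted p = 0.704). Against the ultrasound group it was lower at -0.18 ± 0.066 (SE, adjusted p = 0.0461), a call lost when any library outside the control was left out (adjusted p from 0.0626 to 0.252, and from 0.0574 to 0.194 with DESeq2, no filter on low counts or the replicate block).

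Dkk3, a divergent Dickkopf, had 37.5 and 34.00 CPM in the control, 36.8 and 34.5 CPM in the piezoelectric, 40.9 and 43.4 CPM in the ultrasound and 35.3 and 35.8 CPM in the nanosticker libraries. The ultrasound pair was the highest, and the nanosticker pair lay below it at -0.24 ± 0.077 (SE, adjusted p = 0.0268), a call lost without either nanosticker or either ultrasound library (adjusted p from 0.0628 to 0.178, and 0.17 with DESeq2). Without control replicate 1, Dkk3 also passed in the ultrasound comparison with the control, at 0.31 (adjusted p = 0.0215).

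Frzb, another secreted Frizzled-related protein, had 4.65 and 4.70 CPM in the control, 5.45 and 5.36 CPM in the piezoelectric, 3.15 and 3.38 CPM in the ultrasound and 5.29 and 5.46 CPM in the nanosticker libraries. The ultrasound libraries were the lowest, and nanosticker was above ultrasound at 0.72 ± 0.17 (SE, adjusted p = 0.00599), not past the threshold without ultrasound replicate 1 (adjusted p = 0.0544, and 0.0944 with DESeq2). Wif1, which binds Wnt proteins outside the cell, had 0.839 and 0.644 CPM in the control, 0.385 and 0.638 CPM in the piezoelectric, 0.963 and 0.383 CPM in the ultrasound and 1.26 and 1.28 CPM in the nanosticker libraries. It passed the filter on low counts only through the nanosticker group, so its place among the tested genes rests on its higher values there. It passed against the piezoelectric group, at 1.30 ± 0.47 (SE, adjusted p = 0.0462), and not without any 1 of the nanosticker or piezoelectric libraries (adjusted p from 0.0814 to 0.269, and from 0.054 to 0.252 with DESeq2, library size alone or the replicate block). Apcdd1, Dkk4 and Sfrp4 passed in no comparison.

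Genes of the R-spondin axis moved in opposite directions with nanostickers. R-spondins bind Lgr4, Lgr5 and Lgr6 and so protect Frizzled receptors from the ubiquitin ligases Rnf43 and Znrf3. In these cells the 3 Lgr receptor genes fell and Rnf43 rose, 4 of the 5 tested genes of this axis, where 37.5% of all tested genes passed. The 4 R-spondin genes were not tested, with at most 12 counts in any library.

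Lgr5 (gene ID 299802, reverse strand of chromosome 7 between bases 58447097 and 58587787 of Rnor 6.0), a stem cell marker in several epithelia and itself a known target of β-catenin, had 24.5 and 23.8 CPM in the control, 20.8 and 20.4 CPM in the piezoelectric, 19.96 and 19.3 CPM in the ultrasound and 7.81 and 6.61 CPM in the nanosticker libraries. The nanosticker pair lay far below the other 6 libraries, which were close together with the control highest. The log2 fold change was -1.74 ± 0.11 (SE, adjusted p = 5.87e-08) against the control, -1.51 against the piezoelectric and -1.44 against the ultrasound group.

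Lgr4, the most abundant of the 3 with a mean of 29.4 TPM, had 63.8 and 68.3 CPM in the control, 65.7 and 65.6 CPM in the piezoelectric, 66.4 and 66.2 CPM in the ultrasound and 55.8 and 54.7 CPM in the nanosticker libraries. Its fall was smaller, at -0.26 ± 0.065 (SE, adjusted p = 0.00723), and did not pass without nanosticker replicate 2 (adjusted p = 0.0605). Lgr4 was also lower than in the piezoelectric group, at -0.25 ± 0.065 (SE, adjusted p = 0.00926), a call that ended without nanosticker replicate 2 or piezoelectric replicate 1 (adjusted p from 0.0594 to 0.0722, and 0.0526 with DESeq2). Against the ultrasound group it was lower at -0.26 ± 0.065 (SE, adjusted p = 0.00688), a call that ended without nanosticker replicate 2 or ultrasound replicate 1 (adjusted p from 0.0528 to 0.0606).

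Lgr6 had 1.68 and 1.80 CPM in the control, 1.80 and 1.79 CPM in the piezoelectric, 1.93 and 1.53 CPM in the ultrasound and 0.993 and 0.877 CPM in the nanosticker libraries. Its nanosticker pair was the lowest, at -0.89 ± 0.30 (SE, adjusted p = 0.0352), and leaving out either control, either nanosticker or either piezoelectric library ended the call (adjusted p from 0.053 to 0.156, and from 0.0649 to 0.268 with DESeq2 or the compared groups alone). Of the summed TPM of the 3 receptor genes, a description with no test, Lgr5 held 23.6 and 22.6% in the control and 11.1 and 8.84% in the nanosticker libraries.

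Rnf43 (gene ID 303412, forward strand of chromosome 10 between bases 74956411 and 75030275 of Rnor 6.0) had 1.03 and 1.93 CPM in the control, 1.73 and 1.34 CPM in the piezoelectric, 1.48 and 1.21 CPM in the ultrasound and 4.17 and 4.25 CPM in the nanosticker libraries. The nanosticker pair was above every other library, at a log2 fold change of 1.5 ± 0.30 (SE, adjusted p = 0.00146). Znrf3, its close relative, had 3.16 and 5.41 CPM in the control and 5.23 and 4.65 CPM in the nanosticker libraries, which lay between the 2 control values. It did not pass, at 0.20 ± 0.23 (SE, adjusted p = 0.532). Without control replicate 2 the value was 0.64, a rise that rests on control replicate 1, since both nanosticker libraries were below control replicate 2.

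**Figure D5:**
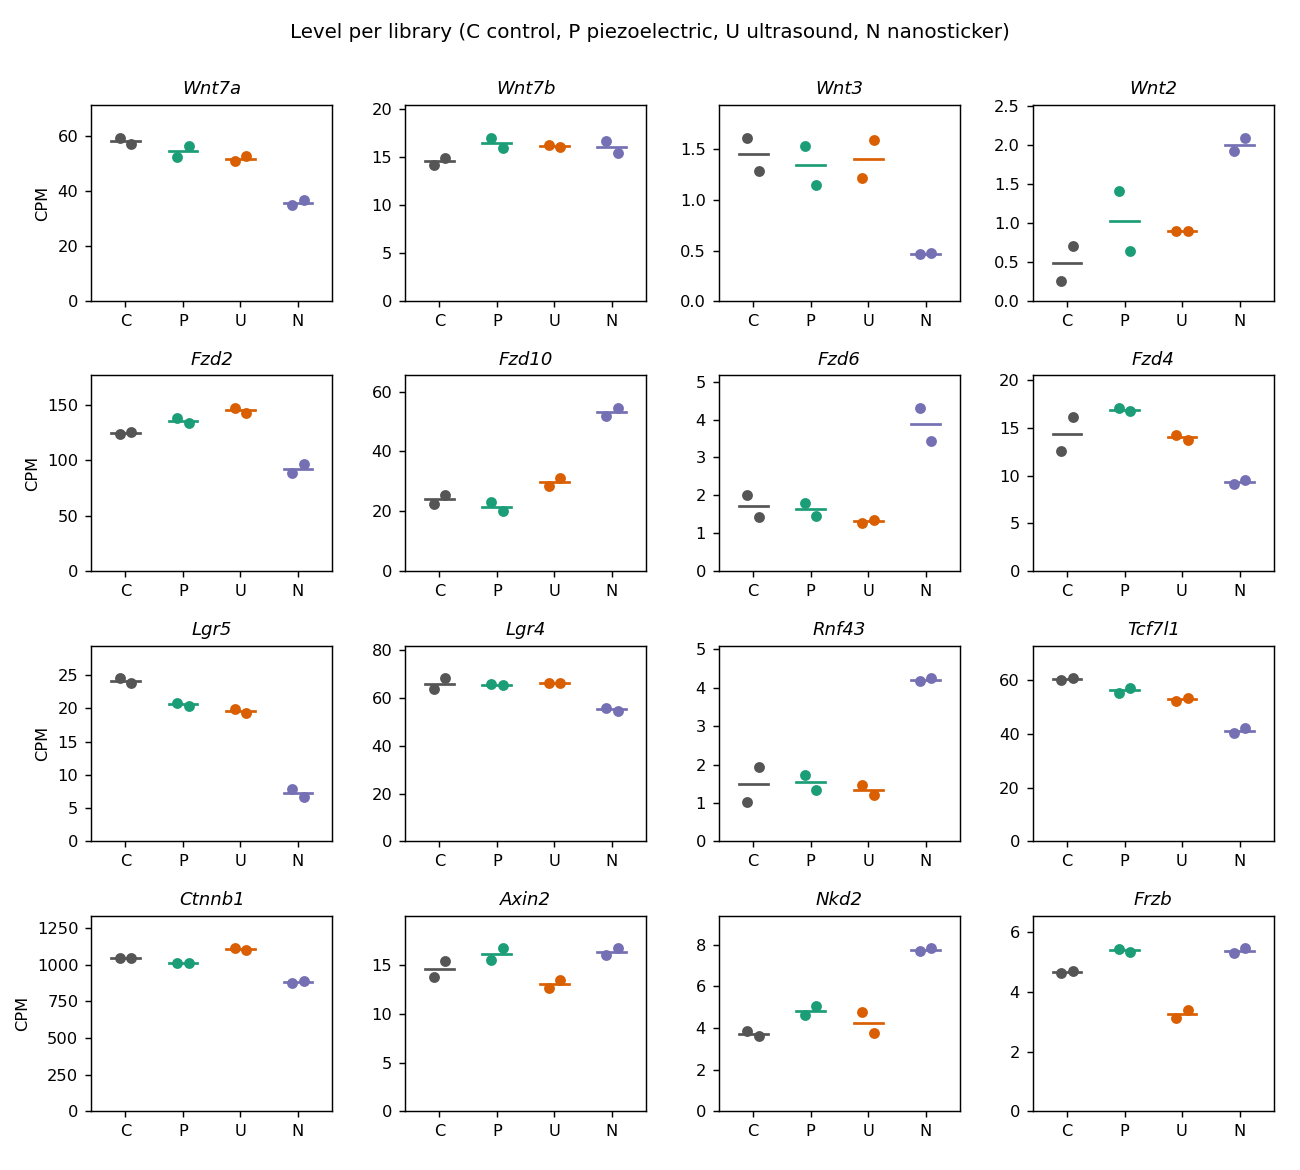
CPM of 16 members in each library, with 1 point per library and a short line at the mean of each group, by group (C control, P piezoelectric, U ultrasound, N nanosticker) on linear axes that start at 0. The nanosticker points lie below every other library at Lgr5 (7.81 and 6.61 CPM) and above every other library at Fzd10 (51.9 and 54.5 CPM).

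Inside the cell, Ctnnb1 and Tcf7l1 fell with nanostickers while Lef1 was higher than with either single treatment. Ctnnb1 had 1046 and 1047 CPM in the control, 1008 and 1011 CPM in the piezoelectric, 1111 and 1098 CPM in the ultrasound and 873 and 891 CPM in the nanosticker libraries. The nanosticker pair was the lowest, and the difference was small but called under every alternative, at -0.25 ± 0.049 (SE, adjusted p = 0.00149). Against the piezoelectric group it was -0.19 ± 0.049 (SE, adjusted p = 0.0074), and did not pass without nanosticker replicate 1 or piezoelectric replicate 1 (adjusted p from 0.0508 to 0.0752). The activity of β-catenin is set mainly by protein stability, which was not measured.

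Tcf7l1, a TCF factor that acts mostly as a repressor, had 60.2 and 60.7 CPM in the control, 55.3 and 57.01 CPM in the piezoelectric, 52.2 and 53.5 CPM in the ultrasound and 40.3 and 42.1 CPM in the nanosticker libraries. Both nanosticker libraries lay below the other 6, at -0.55 ± 0.067 (SE, adjusted p = 2.63e-05), with -0.45 against the piezoelectric and -0.36 against the ultrasound group.

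Lef1, a TCF/LEF factor and a known target of the pathway, had 1.42 and 2.19 CPM in the control, 1.60 and 1.15 CPM in the piezoelectric, 1.73 and 1.28 CPM in the ultrasound and 3.04 and 2.70 CPM in the nanosticker libraries. The nanosticker pair was the highest of the 8, at 1.06 ± 0.31 (SE, adjusted p = 0.0163) against the piezoelectric and 0.93 ± 0.30 (SE, adjusted p = 0.031) against the ultrasound group. Against the control the value was 0.67 ± 0.30 (SE, adjusted p = 0.0971), and 1.01 without control replicate 2 (adjusted p = 0.035). The call against the piezoelectric group ended without nanosticker replicate 1 or piezoelectric replicate 2 (adjusted p from 0.0933 to 0.139, and 0.126 with DESeq2), and that against the ultrasound group without either nanosticker or either ultrasound library (adjusted p from 0.0592 to 0.204, and 0.198 with DESeq2). Tcf7 had 1.81 and 2.06 CPM in the control, 2.31 and 2.30 CPM in the piezoelectric, 1.93 and 2.17 CPM in the ultrasound and 1.99 and 1.75 CPM in the nanosticker libraries. The nanosticker and control pairs overlapped (log2 fold change -0.048 ± 0.26, adjusted p = 0.907) and the piezoelectric pair was the highest, with no call in any comparison.

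The feedback genes did not move as a block. Axin2, the most used readout of β-catenin signalling, had 13.7 and 15.3 CPM in the control, 15.5 and 16.6 CPM in the piezoelectric, 12.6 and 13.5 CPM in the ultrasound and 15.95 and 16.7 CPM in the nanosticker libraries. The nanosticker values overlapped the piezoelectric values and did not differ from the control past the threshold, at 0.17 ± 0.11 (SE, adjusted p = 0.257). They were above ultrasound at 0.32 ± 0.11 (SE, adjusted p = 0.0395), a call lost when any library outside the control was left out (adjusted p from 0.056 to 0.212, and from 0.07 to 0.228 with DESeq2 or library size alone).

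Nkd1, a Dishevelled-binding inhibitor with a mean of 8.62 TPM, had 14.98 and 17.96 CPM in the control, 15.8 and 17.03 CPM in the piezoelectric, 14.6 and 15.4 CPM in the ultrasound and 16.5 and 15.4 CPM in the nanosticker libraries. Its nanosticker values lay between those of the 2 control libraries, at -0.048 ± 0.12 (SE, adjusted p = 0.78). Its relative Nkd2 had 3.87 and 3.61 CPM in the control, 4.62 and 5.04 CPM in the piezoelectric, 4.75 and 3.77 CPM in the ultrasound and 7.68 and 7.82 CPM in the nanosticker libraries. The nanosticker pair was the highest, at 1.05 ± 0.18 (SE, adjusted p = 4.28e-04) against the control, 0.68 ± 0.17 (SE, adjusted p = 0.00738) against the piezoelectric and 0.86 ± 0.17 (SE, adjusted p = 0.00185) against the ultrasound group. The call against the piezoelectric group ended without piezoelectric replicate 1 (adjusted p = 0.0683, and 0.0848 with DESeq2).

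Calls against the single treatments that are not described above repeat the directions against the control. Wnt3 was lower at -1.51 against the piezoelectric group, lost without either nanosticker library or piezoelectric replicate 1 (adjusted p from 0.0512 to 0.0812, and 0.098 with DESeq2), and at -1.57 against the ultrasound group, lost without ultrasound replicate 2 (adjusted p = 0.066, and 0.0873 with DESeq2). Wnt9a was lower at -0.58, lost without nanosticker replicate 1 or piezoelectric replicate 1 (adjusted p from 0.0636 to 0.0642, and 0.0855 with DESeq2), and at -0.58, lost without nanosticker replicate 1 or ultrasound replicate 2 (adjusted p from 0.0644 to 0.0672, and 0.0955 with DESeq2). Lgr6 was lower at -0.93, lost without any 1 of the nanosticker or piezoelectric libraries (adjusted p from 0.0823 to 0.141, and 0.247 with DESeq2), and at -0.88, lost without any 1 library outside the control (adjusted p from 0.0586 to 0.22, and from 0.0531 to 0.301 with DESeq2, limma-voom, no filter on low counts or the replicate block). Fzd2 and Fzd8 were lower at -0.55 and -0.35 against the piezoelectric group, and Ctnnb1 was lower at -0.32 against the ultrasound group. Fzd4, Fzd6 and Rnf43 kept their direction, with -0.86, 1.24 and 1.45 against the piezoelectric and -0.59, 1.55 and 1.64 against the ultrasound group.

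The 15 members that were not tested had at most 14 counts and at most 0.760 TPM in any library. They were the ligands Wnt1, Wnt6, Wnt8b, Wnt9b, Wnt10a, Wnt10b and Wnt11, the antagonists Dkk1, Dkk2, Sfrp5 and Notum, and the 4 R-spondins. Notum, an enzyme that removes the lipid from Wnt proteins and a known target of the pathway, had 5 and 1 counts in the control, 4 and 6 in the piezoelectric, 1 and 1 in the ultrasound and 6 and 14 in the nanosticker libraries. The nanosticker libraries had the highest counts, with 1 tied with a piezoelectric library at 6. Without control replicate 1 Notum entered the test and was higher with nanostickers at 3.22 (adjusted p = 0.0283), against a single control library of 1 count, too few to carry a result.

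A wider list of 63 further pathway genes, of which 60 were tested, held 11 that were higher and 14 that were lower with nanostickers than in the control, 41.7% in all beside 37.5% of all tested genes, with a median log2 fold change of -0.021. The largest rise was in Sostdc1, an antagonist of BMP and Wnt signals, from 1.55 ± 0.276 to 9.52 ± 0.489 CPM (SD, n = 2), a log2 fold change of 2.61 ± 0.23 (SE, adjusted p = 1.36e-06). The deepest fall was in Dact1, which encodes a Dishevelled-binding protein, from 12.5 ± 0.388 to 1.80 ± 0.165 CPM, at -2.79 ± 0.17 (SE, adjusted p = 5.61e-08). Tcf7l2, the TCF factor best known in the oligodendrocyte lineage, rose at 0.65 ± 0.071 (SE, adjusted p = 1.05e-05) beside the higher summed level of oligodendrocyte markers given above. The part of that shift in the rise of Tcf7l2 was not tested.

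Several genes of the wider list act in planar cell polarity, a branch of Wnt signalling that does not use β-catenin. Of these, Celsr3 at -1.11, Celsr1 at -1.05, Vangl2 at -0.44 and Vangl1 at -0.43 fell with nanostickers, while Prickle1 rose at 1.03 on the log2 scale. Celsr2 at 0.060, Prickle2 at -0.054, Ptk7 at -0.089 and Daam1 at -0.082 did not pass. Reck, the co-receptor for Wnt7a and Wnt7b, rose at 0.47, where Wnt7a fell. Ctnnbip1, an inhibitor of β-catenin, rose at 0.44. The other nanosticker calls were Tle5 at 0.43, Tle1 at 0.37, Rac1 at 0.37, Pygo2 at 0.26, Dact3 at 0.25 and Rhoa at 0.18, all higher, and Daam2 at -0.93, Tpbg at -0.61, Ctnnd2 at -0.47, Ndp at -0.26, Tle3 at -0.25, Tle4 at -0.21, Bcl9l at -0.21, Csnk1e at -0.21 and Dvl3 at -0.15, all lower. Daam2 and Ndp have counts that are not whole. Leaving out 1 library ended 8 of these 25 calls, those of Bcl9l, Csnk1e, Dact3, Dvl3, Ndp, Pygo2, Rhoa and Tle4, with adjusted p from 0.0533 to 0.267. Csnk1e was lost without nanosticker replicate 1, Dact3 and Pygo2 without nanosticker replicate 2, and the others without either. Rhoa, Ndp and Dvl3 were also lost without either ultrasound library, Ndp without control replicate 1 and Dvl3 without either piezoelectric library. Bcl9l and Tle4 were lost without any library other than control replicate 1. Bcl9l, Dact3, Dvl3, Ndp and Tle4 were also lost with DESeq2 (adjusted p from 0.0645 to 0.113), Bcl9l, Dact3, Dvl3, Rhoa and Tle4 with the compared groups alone (0.0582 to 0.119), Bcl9l and Dvl3 with the replicate block (0.0584 and 0.0521), and Rhoa with library size alone (0.128).

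With ultrasound 8 of the 60 genes passed, 13.3% beside 7.19% of all tested genes. Draxin, at 1.03 on the log2 scale, and Ndp, at 0.41, were higher. Sostdc1 at -1.34, Gpc4 at -0.74, Tcf7l2 at -0.59, Gpc6 at -0.47, Vangl2 at -0.35 and Daam1 at -0.27 were lower. The fall of Sostdc1 did not pass with DESeq2, limma-voom or the compared groups alone (adjusted p from 0.0622 to 0.13). Daam1 did not pass with DESeq2, the replicate block or the compared groups alone (adjusted p from 0.0561 to 0.123), nor Vangl2 with the compared groups alone (0.0528). For Sostdc1 and Tcf7l2, nanosticker against ultrasound gave 3.95 and 1.25 (adjusted p = 1.40e-07 and 4.74e-08). The ultrasound calls of Daam1, Draxin, Ndp, Sostdc1 and Vangl2 ended without ultrasound replicate 1 (adjusted p from 0.0734 to 0.295). Those of Daam1, Ndp, Sostdc1 and Vangl2 also ended without ultrasound replicate 2, that of Sostdc1 without control replicate 1, and that of Daam1 without any library but control replicate 1 (adjusted p up to 0.295 over these). With the piezoelectric material 0 of the 60 passed, with 9 at an unadjusted p below 0.05, beside 1161 of the 14336 tested genes. Against the piezoelectric group 15 were higher and 15 lower with nanostickers, 50% beside 36.4% of all tested genes, and against the ultrasound group 13 and 14, 45% beside 34.4%.

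A list of 27 gene symbols for known targets of β-catenin signalling, not all of them distinct genes, matched 24 genes, of which 16 were tested. With nanostickers 7 were higher and 2 lower than in the control, 56.2% in all beside 37.5% of all tested genes, and the median log2 fold change was 0.33. Those higher were Prox1 at 1.02, Ephb2 at 0.91, Ccnd1 at 0.74, Cd44 at 0.73, Ephb3 at 0.46, Tnfrsf19 at 0.40 and Jun at 0.26, and those lower Fosl1 at -0.90 and Id2 at -0.23. Most of these genes also answer to other pathways, and Ephb2 has counts that are not whole. With ultrasound Jun at 0.33, Myc at 0.37, Cd44 at 0.49 and Ephb2 at 0.59 were higher and 0 lower, 25% beside 7.19%. With the piezoelectric material 0 of the 16 passed, with 3 at an unadjusted p below 0.05, beside 1161 of the 14336 tested genes. Against the piezoelectric group 7 were higher and 1 lower with nanostickers, 50% beside 36.4% of all tested genes, and against the ultrasound group 5 and 2, 43.8% beside 34.4%. The calls of Tnfrsf19, without nanosticker replicate 2 (adjusted p = 0.0626), and of Id2, without nanosticker replicate 1 (0.252) or ultrasound replicate 1 (0.0507), were lost in the nanosticker comparison. With ultrasound, Jun without ultrasound replicate 1, Ephb2 without ultrasound replicate 2 and Myc without either were lost (adjusted p from 0.0536 to 0.0641). Tnfrsf19 with nanostickers was also lost with DESeq2 (adjusted p = 0.0656), and Ephb2 with ultrasound with the compared groups alone (0.0676).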

How the data were processed

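RNA of 8 libraries, 4 groups of 2, was analysed, with group and replicate number taken from each sample's label. Per the labels' protocols, messenger RNA was enriched with oligo(dT), primed with random hexamers and sequenced as DNA nanoballs. The estimated counts were deposited by the authors per gene, and 10.5% are not whole at a tolerance of 0.005. TPM values were deposited by the authors and are scaled for length; they give levels between genes and shares. FPKM values deposited by the authors served only, with the counts, to derive effective lengths. Coordinates refer to Rnor 6.0, named in the submitters' processing notes. Which aligner and counter were run, and whether strand was used, is not given in the sources at hand, so reads of overlapping genes cannot be told apart.

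Counts were rounded to whole numbers, filtered with filterByExpr (minimum count 10), scaled by TMM (factors 0.972 to 1.02) and tested with edgeR 4.0.16 (quasi-likelihood, two-sided, all 8 libraries, 4 residual degrees of freedom) in R 4.3.3, for 5 comparisons. The p-values were adjusted by Benjamini-Hochberg over 14336 genes at a threshold of 0.05, and standard errors were taken from each log2 fold change and its F statistic. The biological coefficient of variation was 7.09%. Printed CPM use TMM-scaled library sizes. Alternatives used DESeq2 1.42.0, limma 3.58.1 (voom), other scalings and filters, the compared groups alone, a length-trend correction, whole counts only, a replicate block and each library left out. Replicate numbers did not pair the samples (correlations of deviations from -0.152 to 0.158), so the numbers only name them.

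Members and lists were chosen with earlier results of these data known. Members past the threshold in any comparison, Axin2, Lef1, Tcf7, Nkd1, Notum, Lgr5, Ctnnb1 and the gene of highest mean TPM in each role were described by library, and the other members by count. No list was tested against other genes.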

Additional observations from a re-analysis of the deposited data

How the results depend on the processing

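With 2 libraries a group the spread has few degrees of freedom, and 15 members lay below the depth at which a change could be tested. The call was kept under every alternative that could be run, 18 or, for a gene dropped by 1 of them, 17, for 11 of the 19 members called with nanostickers against the control, 9 of 23 against the piezoelectric group, 10 of 24 against the ultrasound group and 0 of 1 with ultrasound. The 11 were Wnt2, Wnt7a, Fzd2, Fzd4, Fzd8, Fzd10, Lgr5, Rnf43, Ctnnb1, Tcf7l1 and Nkd2. Under DESeq2 the count of members was 11 against the piezoelectric group, 12 against the ultrasound group and 0 for ultrasound against control, and the cause was not tested. For ultrasound against control it was also 0 with relative log expression factors, with library size alone, with the compared groups alone and with the replicate block, and 2 with the length trend removed. Leaving out 1 library gave 0 to 2 members for piezoelectric, 0 to 3 for ultrasound and 15 to 22 for nanosticker against control, 11 to 27 against piezoelectric and 13 to 27 against ultrasound. Those counts came from 47 to 49 tested members and stand without the share of all tested genes, so they show only how far the calls moved. Of the uncalled members, only Axin2, Lef1, Tcf7, Nkd1, Wnt7b, Wls and Sfrp2 were followed for sign in nanosticker against control. Values among these that changed sign on the log2 scale were Sfrp2 at 0.0069 without control replicate 1, and Nkd1 at 0.088 and Tcf7 at 0.048 without control replicate 2. Without nanosticker replicate 2, Nkd1 at 0.0014 and Tcf7 at 0.038 also changed sign. Over the libraries left out they ran from -0.086 to 0.0069 for Sfrp2, from -0.18 to 0.088 for Nkd1 and from -0.14 to 0.048 for Tcf7. Scaling by library size alone moved the higher share of called genes among all tested from 52.8% to 41.4% against the control, and of called members from 26.3% to 25%. A further alternative took the replicate number as a block, a pairing that the labels do not state. The counts of members were then 0, 0, 18, 21 and 19 in the 5 comparisons in the order above, piezoelectric and ultrasound first. With the replicate numbers crossed, an alternative chosen after seeing the data, the counts were 0 for ultrasound and 17 for nanosticker against control, and 25 for nanosticker against ultrasound. A search for TCF/LEF motifs in the members' promoters was not run, for want of promoter sequence.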
